A study of Drosophila melanogaster with 3 samples.

Results

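Binding of the BEN-domain protein Insensitive was described at 10 nuclear receptor genes of Drosophila melanogaster, svp, EcR, usp, ERR, Hnf4, Hr38, Hr39, ftz-f1, tll and kni, out of 13945 protein-coding genes on the main chromosome arms. The study is a chromatin immunoprecipitation experiment followed by sequencing (ChIP-seq), in 1 group of 3 biological replicates, numbered 1 to 3 by the labels. Each was made from whole embryos of mixed sex, 0 to 24 h old, of the strain insv-GFP, in which the product of insv carries GFP at its C terminus, and the fusion was precipitated through GFP. There was no second group. Whole embryos of all ages were pooled, so strong binding in a few cells and weak binding in many cannot be told apart. The genes were chosen by membership of the nuclear receptor family, with the signal ranks at these genes, those of svp above all, already known. Regions were assigned to a gene when they overlapped it or lay within 10 kb of it, and were ranked by the deposited signal value. These ranks are therefore given as a description, without a test. Of the 30000 regions in the list called on the pooled replicates 163 met this rule, and of the 732 thresholded peaks 5 did. In replicates 1, 2 and 3, whose lists also hold 30000 regions each, 159, 176 and 157 did. The thresholded peaks are the 732 highest regions of the pooled list, so a pooled rank up to 732 means a peak and a higher rank number a region below the threshold. How deeply each library was sequenced is unknown. The signal of a region is the value that the authors' caller gave it, and it is compared here only within a list.

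Nuclear receptors are transcription factors with a zinc-finger DNA-binding domain and, in most members, a domain that binds a small lipophilic ligand. In the fly they carry the ecdysone signal (EcR with its partner usp, and the response genes ftz-f1, Hr39, Eip75B and Hr3), set metabolic states (ERR, Hnf4), pattern the early embryo (tll and kni, gap genes) and assign cell fates (svp, the orthologue of vertebrate COUP-TF, known from photoreceptor and neuroblast fates). Several of these genes have more than 1 transcript start, and different starts give receptor isoforms with different amino termini, as the A and B forms of EcR. Insensitive is a co-repressor that binds the palindrome CCAATTGG through its BEN domain.

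Sequences are shown for both stretches of peaks at svp and for the Hr39 peak, and for the ERR region, which was below the threshold, because it held the palindrome. Each covers 201 bases centred on the summit of a pooled region, on the strand of its gene, from the release 6 genome. Capitals mark matches, on either strand, to any of CCAATTGG, CCAATAAG, TATCGATA, GAGAGAG and GGTCACAC, with overlapping GAGAGAG matches run together.
svp strongest peak, dm6 chr3R:12280723-12280923, plus strand: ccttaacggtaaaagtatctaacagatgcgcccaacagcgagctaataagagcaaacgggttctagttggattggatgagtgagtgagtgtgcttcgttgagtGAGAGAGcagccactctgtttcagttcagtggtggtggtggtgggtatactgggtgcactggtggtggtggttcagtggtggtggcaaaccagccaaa
svp next peak, dm6 chr3R:12279173-12279373, plus strand: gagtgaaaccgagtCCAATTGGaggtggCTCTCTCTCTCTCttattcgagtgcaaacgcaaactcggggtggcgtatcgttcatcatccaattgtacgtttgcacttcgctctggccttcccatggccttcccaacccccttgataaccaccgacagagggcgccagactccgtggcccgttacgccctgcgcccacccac
Hr39 peak, dm6 chr2L:21237958-21238158, plus strand: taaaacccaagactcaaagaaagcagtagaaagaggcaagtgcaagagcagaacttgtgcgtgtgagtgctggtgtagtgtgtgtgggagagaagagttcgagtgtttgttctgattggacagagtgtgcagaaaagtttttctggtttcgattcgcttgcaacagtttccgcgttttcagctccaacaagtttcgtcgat
ERR region, dm6 chr3L:8185691-8185891, minus strand: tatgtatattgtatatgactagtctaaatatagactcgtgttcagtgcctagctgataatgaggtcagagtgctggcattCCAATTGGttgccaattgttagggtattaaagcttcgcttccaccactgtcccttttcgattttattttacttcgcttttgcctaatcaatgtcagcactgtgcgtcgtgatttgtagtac
The second svp sequence held the palindrome, followed 6 bases later by a run of 4 overlapping GAGAGAG matches in the reverse orientation, and the ERR sequence held the palindrome alone. The strongest svp sequence held 1 GAGAGAG match, and the Hr39 sequence no match to the 5 motifs. None of the 4 windows overlapped a coding exon or a UTR of the annotation.

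At svp (FBgn0003651, 3R 12258737 to 12302785, plus strand), 3 thresholded peaks lay together inside the gene, in the intron before its inner starts. The gene has 2 groups of starts, the far upstream start of svp-RC and, 22373 bp further inside, the starts of svp-RA at 12281110 and of svp-RB, svp-RE and svp-RF at 12281152. The strongest peak, at 3R 12280615 to 12281030, had a pooled signal of 212.5 and rank 149, with its summit 287 bp upstream of the svp-RA start. Its counterpart ranked 95 in replicate 1, 260 in replicate 2 and 142 in replicate 3, with signals of 110.1, 58.1 and 56.1. The summits of these counterparts lay 93 bp to the left of the pooled summit in replicate 1 and 32 and 31 bp to its right in replicates 2 and 3. In each of the 3 replicates this was the highest region anywhere in the svp window.

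The next peak, at 3R 12279065 to 12279480, lay 1837 bp upstream of svp-RA, with a pooled signal of 169.1 and rank 230. It ranked 126, 274 and 397 in replicates 1, 2 and 3, the second place at svp in every replicate. The remaining peak, at 3R 12279266 to 12279681, overlapped it and had a signal of 93.4 and rank 536. Replicates 1 and 2 had regions of their own there, at ranks 397 and 1117, while in replicate 3 it was overlapped only by the region already counted, whose summit was 220 bp away. A further pooled region at 3R 12280820 to 12281235, 82 bp upstream of svp-RA and overlapping the strongest peak, fell below the threshold at rank 1003. The 3 peaks therefore covered 2 stretches of the intron.

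The svp-RC start differed from the inner starts in every list. Within 1000 bp of it the best pooled region ranked 11458, and those of replicates 1, 2 and 3 ranked 26796, 6294 and 11042, compared with 149, 95, 260 and 142 within 1000 bp of the inner starts. Of the 23 pooled regions in the svp window only the 3 peaks ranked among the top 1000. Among the other 20 the highest after rank 1003 was rank 1110, at 3R 12252362 to 12252777, outside the gene and 1617 bp upstream of the start of CG3942.

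**Figure D1:**
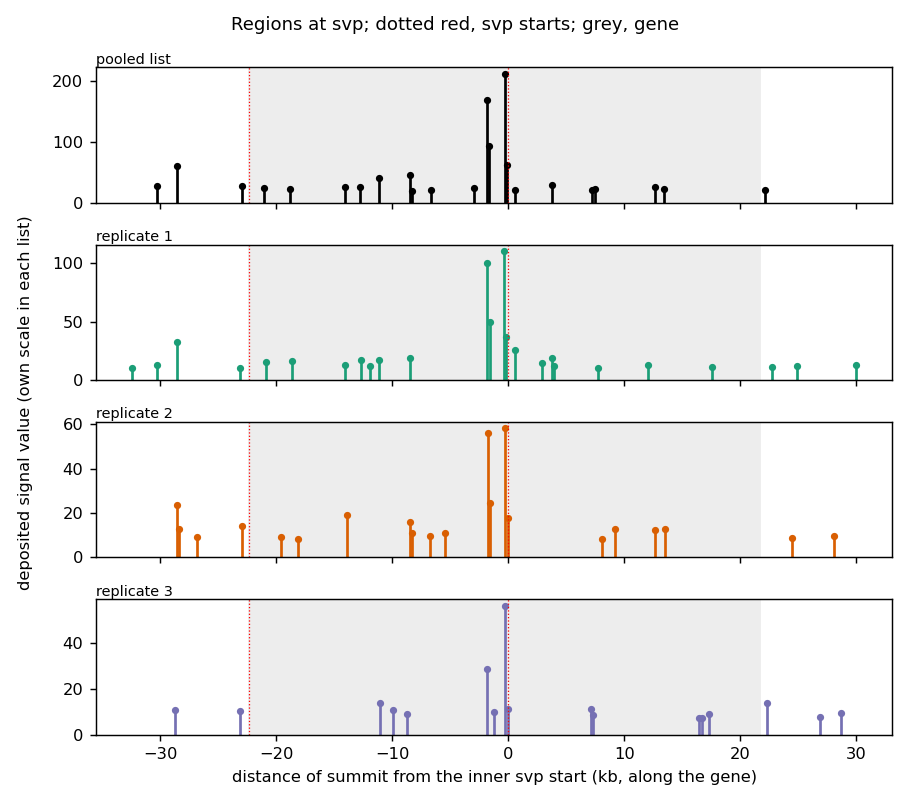
Signal value (vertical axis, each list on its own scale) of every region in the svp window against the distance of its summit from the svp-RA start in kb, for the pooled list and replicates 1 to 3. In all 4 panels the highest values stand within 2 kb upstream of the inner start (dotted line at 0) and the svp-RC start (dotted line at left) has only low regions; grey marks the gene.

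The palindrome CCAATTGG occurred 9 times in the 10 gene windows, and 5 of these were at svp. The windows ran from 22.1 kb at tll to 101.2 kb at EcR, which held no copy, with 64.0 kb at svp. These counts were not scaled to window length, so they are not read as more or fewer copies than elsewhere. Of the 5 svp copies 1 lay inside a pooled region, that of the peak at rank 230. The other 4 overlapped no region of the pooled list at any rank. Among the 4 remaining copies, that of ERR lay in the region of rank 973 and that of kni in a region of rank 4405. Those of Hr38 and tll lay in no pooled region. These counts use the pooled list only. In replicate 2 a region of rank 14158 covered the svp copy at 3R 12273040 to 12273047, and a region of rank 11731 the Hr38 copy. In all, 33.3% of the copies in the windows of these genes lay in a pooled region and 22.2% in one of the top 1000, against 15.4% and 4.83% of the 2939 copies on the main arms. With 9 copies these shares rest on 3 and 2 sites. The genes were chosen with the ranks of these regions known, so nothing is read from the higher shares. The copies at svp, ERR and kni are printed with 10 bases to each side, in capitals for the palindrome. The words no region stand for no region of the pooled list.
svp in the rank 230 peak, dm6 chr3R:12279177-12279204, plus strand: gaaaccgagtCCAATTGGaggtggctct
svp, no region, dm6 chr3R:12261844-12261871, plus strand: gtaaatattgCCAATTGGtaatgaagtt
svp, no region, dm6 chr3R:12273030-12273057, plus strand: gataggttaaCCAATTGGctacagtagc
svp, no region, dm6 chr3R:12299035-12299062, plus strand: atgactccccCCAATTGGatcctttgga
svp, no region, dm6 chr3R:12304627-12304654, plus strand: gattttgtgaCCAATTGGccaagaaggt
ERR in the rank 973 region, dm6 chr3L:8185794-8185821, minus strand: tgctggcattCCAATTGGttgccaattg
kni in the rank 4405 region, dm6 chr3L:20691139-20691166, minus strand: aataaaccatCCAATTGGgatagggacg
All 7 share the same central 8 bases by construction. The flanks differ between the copy in the svp peak and the 4 copies at svp that no pooled region covered. Flanks of separate places would differ in any case, so nothing about binding is read from them.

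Of the 5 thresholded peaks at these genes, 1 held CCAATTGG and 2 held GAGAGAG, both at svp, and none held CCAATAAG, the DREF element TATCGATA or the M1BP element GGTCACAC. Among all 609 thresholded regions of the same length, 416 bp, 15.6% held CCAATTGG, 20.2% GAGAGAG, 8.05% CCAATAAG, 5.58% TATCGATA and 4.93% GGTCACAC. Among the 29877 pooled regions of that length the shares were 1.51%, 5.15%, 1.3%, 1.01% and 1.15%. The 3 svp peaks had GC contents of 50.7%, 55.5% and 51.2%, that of Hr39 45.9% and that of EcR 36.8%, compared with a median of 41.3% over the thresholded regions of 416 bp. A match is a description of these letters and not evidence of a bound site.

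Besides svp, EcR and Hr39 had a thresholded peak, 1 each, so 3 of the 10 genes had one, against 17.5% of all protein-coding genes under the same rule. Since the members were chosen with these calls known, nothing is read from that count. The median length of the 10 genes was 22406 bp against 2166 bp for all protein-coding genes, so their windows were also longer. The median gene of the 10 had 13.5 pooled regions in its window, compared with 8 over all genes. The median best pooled rank was 1244 for the 10 and 2729 over the 13417 genes with any region in the window. How much of this difference follows from window length was not tested.

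In EcR (FBgn0000546, 2R 6087873 to 6169087, minus strand), the ecdysone receptor gene, the peak lay in an intron at 2R 6133962 to 6134377, with a pooled signal of 84.3 and rank 628. Its summit was 2248 bp upstream of the start shared by EcR-RB and EcR-RC. The best region overlapping it ranked 926 in replicate 1, 500 in replicate 2 and 1026 in replicate 3. A second region of replicate 3 over the same peak, with its summit 58 bp from the pooled one, ranked 5355. A neighbouring pooled region at 2R 6134708 to 6135123 ranked 966, but its counterparts ranked 887, 25375 and 5665, so it was high in replicate 1 only. None of the 3 start groups of EcR had a thresholded summit within 1000 bp. The best pooled region within that distance ranked 7082 at the start group of EcR-RB, EcR-RC and EcR-RG and 2866 at the start of EcR-RD and EcR-RE, and the start of EcR-RA had none. At the EcR-RD and EcR-RE start the replicates differed, with best ranks of 27778, 1436 and 8163 in replicates 1, 2 and 3.

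In Hr39 (FBgn0261239, 2L 21237250 to 21259675, plus strand), an orphan receptor of the NR5A class needed for female reproductive glands, the peak lay at 2L 21237850 to 21238265, in an intron 808 bp downstream of the start shared by all 4 transcripts. Its pooled signal was 79.5 and its rank 675. Its counterpart ranked 374 in replicate 1 and 481 in replicate 2, with summits within 8 bp of the pooled one. Replicate 3 had no region there among its 30000. The highest region of replicate 3 in the Hr39 window, rank 600, lay at the other end of the gene, at 2L 21256782 to 21257161, over a coding exon 19722 bp downstream of the start. There the pooled list had a region of rank 3384.

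svp and Hr39 were the members with a region among the top 1000 of every replicate, 2 of 10, against 13.4% of all protein-coding genes. For svp the 3 replicates marked the same places, for Hr39 they did not. A thresholded summit within 1000 bp of one of the gene's own starts was found for the same 2 genes, 2 of 10, against 4.38% of all protein-coding genes. Since the members were chosen with the ranks known, nothing is read from these counts.

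**Figure D2:**
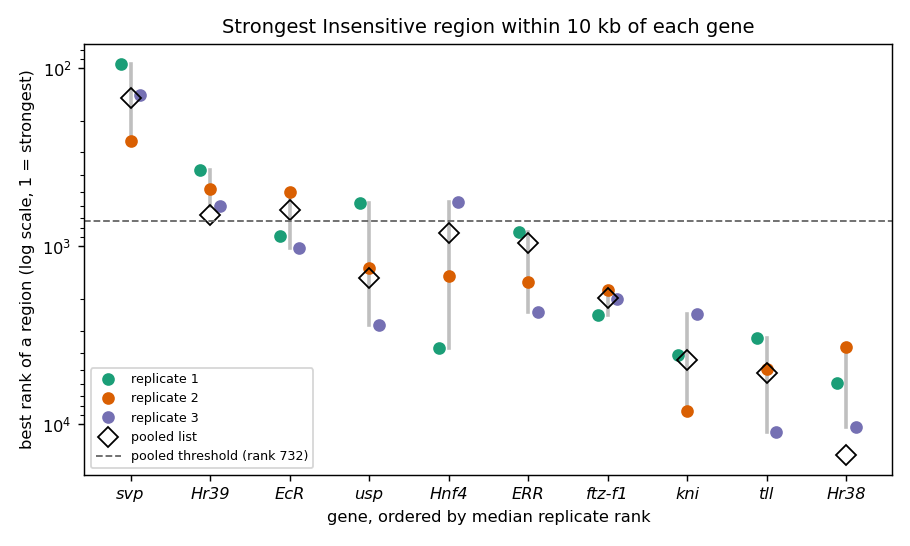
Best rank of any region within 10 kb of each gene (log scale, strongest at the top) in replicates 1, 2 and 3 (points), joined by their range (grey bar), and in the pooled list (open diamond). The svp points, 95 to 260, stand above those of every other gene, and the dashed line marks the pooled rank of 732 at which thresholding ended.

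Ordered by the median of the 3 replicates' best ranks, the genes ran svp (142), Hr39 (481), EcR (887), usp (1340), Hnf4 (1476), ERR (1606), ftz-f1 (2004), kni (4113), tll (4904) and Hr38 (5943). The replicate range of svp, 95 to 260, did not overlap that of Hr39, 374 to 600. Each later neighbour in this order overlapped the next. The genes were chosen with the ranks known, so no separation of genes is read from these ranges of 3 ranks. The range of Hr39 lay above those of ERR, from 843 to 2351, and of ftz-f1, from 1788 to 2463. It does not describe 1 site, since in replicate 3 the best region lay at the other end of Hr39. The ranges of usp, from 578 to 2794, and of Hnf4, from 568 to 3780, were wide. A gene's best rank can come from different places in different replicates. For each of the 9 genes other than svp, the best regions in the 3 replicates did not all overlap one another. Among the 11 other nuclear receptor genes described below, the best regions did all overlap at Hr78, knrl, Hr83 and Eip78C, and not at the rest. Such overlap was therefore not particular to svp. Its share over all protein-coding genes was not calculated.

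Just below the threshold lay Hnf4 and ERR, both receptors of energy and lipid metabolism. At Hnf4 (FBgn0004914, 2L 8687226 to 8709611, minus strand) the best pooled region, rank 854 with a signal of 68.6, lay at 2L 8699930 to 8700345, 233 bp upstream of the internal start of Hnf4-RD. Its counterparts ranked 4028, 1476 and 568 in replicates 1, 2 and 3, low in the first and high in the last. The other 4 starts of Hnf4 had best pooled ranks of 6371 (Hnf4-RE), 17170 (Hnf4-RA), 24275 (Hnf4-RF) and 5116 (Hnf4-RB) within 1000 bp. The next pooled region in this window, rank 1300, lay over a coding exon of Trs23, 434 bp downstream of its start.

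At ERR (FBgn0035849, 3L 8183361 to 8186671, minus strand) the best pooled region, rank 973 with a signal of 63.8, lay at 3L 8185583 to 8185998, 121 bp upstream of the internal start of ERR-RB and 880 bp downstream of that of ERR-RA. This is the region whose sequence holds the palindrome, at 3L 8185804 to 8185811. Its counterparts ranked 843 in replicate 1 and 2351 in replicate 3. In replicate 2 the only overlapping region ranked 18416, with its summit 305 bp away. The highest region of replicate 2 in the window, rank 1606, lay over Uxs. The values of the members nearest the threshold were thus signals of 84.3 for EcR and 79.5 for Hr39 inside it, and 68.6 for Hnf4, 64.2 for the second EcR region and 63.8 for ERR outside it.

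usp (FBgn0003964, X 2038798 to 2042311, minus strand), which encodes the partner of the ecdysone receptor, had no region within 1000 bp of its starts among the top 1000 of any list. The best pooled region in its window, rank 1515 at X 2050042 to 2050457, lay 7939 bp upstream of usp and 130 bp upstream of the start of moody, in an intron of CG4313. Replicate 1 ranked it 578, replicate 3 ranked it 9495, and replicate 2 had no region over it. Within 1000 bp of the usp starts the best ranks were 9102 in the pooled list, 6756 in replicate 1 and 2794 in replicate 3, and replicate 2 had no region there.

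ftz-f1 (FBgn0001078, 3L 18750607 to 18801309, minus strand), a NR5A receptor that acts with Ftz in the embryo and as a competence factor in the prepupa, had its best pooled region at rank 1960, in an intron 3723 bp upstream of the start of ftz-f1-RC and ftz-f1-RD. Its counterparts ranked 18096, 4193 and 2216. None of the 3 start groups of ftz-f1 had a pooled region within 1000 bp.

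The gap genes tll (FBgn0003720, 3R 30852315 to 30854400, plus strand) and kni (FBgn0001320, 3L 20692330 to 20695378, minus strand), which pattern the termini and the abdomen of the early embryo, had no region among the top 2000 of any list. The best pooled region of tll ranked 5229, between genes and 3134 bp downstream of its start, and its counterparts ranked 3304, 10442 and 11164. That of kni ranked 4405, 3214 bp downstream of the start of kni-RB and beyond the gene's end, and its counterparts ranked 12423, 10213 and 2437. Hr38 (FBgn0014859, 2L 20683462 to 20714588, minus strand), the fly NR4A receptor, was the lowest of the 10 in the pooled list and in replicate 1. Its best pooled region ranked 15049, 2186 bp upstream of its start, and only replicate 2 had a region over it, at rank 12312. In replicate 2 the best rank in the Hr38 window was 3723, ahead of tll (4904) and kni (8509). In replicate 3 it was 10431, ahead of tll (11164). Hr38 also had the fewest pooled regions per kb of window among the 10, 0.176, compared with 0.59 at Hnf4, the highest of them, and 0.359 at svp. Hr83, a nuclear receptor gene outside the 10, had 0.188. The value over all genes was not calculated, so Hr38 is not called depleted.

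**Figure D3:**
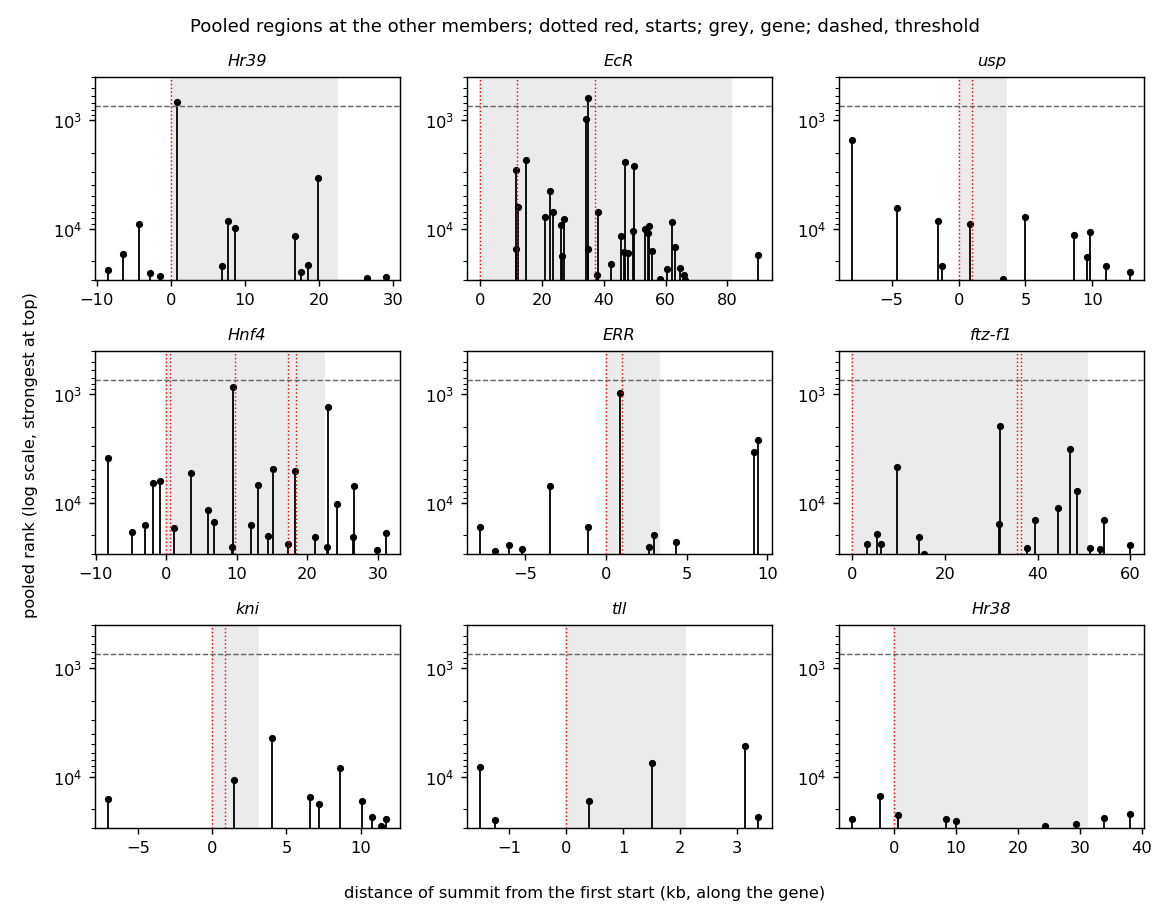
Rank (log scale, strongest at the top) of every pooled region in the windows of the other 9 genes against the distance of its summit from the gene's first start in kb. Dotted lines are transcript starts, grey is the gene and the dashed line is the pooled threshold, which 1 region each of Hr39 and EcR passed.

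The starts of a gene were not marked alike. The 10 genes have 22 groups of starts, joined when within 100 bp of each other, and 17 of these had a pooled region with its summit within 1000 bp, against 55.2% of the 18922 start groups of all protein-coding genes. For 5 of the 22 that region was among the top 1000, against 5.46%, namely the inner starts of svp, the start of Hr39, that of Hnf4-RD and both starts of ERR, which share 1 region. Of the 7 genes with several starts, the strongest pooled region was nearest to a start other than the first in 6, svp, EcR, ERR, Hnf4, ftz-f1 and kni, and nearest to the first in usp alone. Over all 3260 protein-coding genes with several starts and a region in the window the share was 55.5%. The nearest start was not always near. In EcR, ftz-f1 and kni it was 2248, 3723 and 3214 bp from the summit, which at kni lay beyond the gene's end. The count of 6 was noticed in these data, and nothing particular to nuclear receptor genes is read from 7 genes. The genes were chosen with the ranks known, so nothing is read from the counts of 17 and 5 start groups either.

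Of the 11 other fly nuclear receptor genes, listed by family membership, 7 had a thresholded peak within 10 kb, against 17.5% of all protein-coding genes. Nothing is read from this count, because the list was made with earlier results of these data known. These were Hr78, knrl, Hr3, Hr4, Eip75B, Hr83 and Eip78C, while the remaining 4 had none. At Hr78 the peak was stronger than any at svp, with a pooled signal of 295.6 at rank 79 and counterparts ranked 100, 58 and 91 in replicates 1, 2 and 3. Its summit lay 126 bp downstream of the first Hr78 start, in the 5′ UTR, at 3L 21497160 to 21497575, and its region held CCAATAAG, a site of the related Elba complex, and GGTCACAC, each once. A further thresholded peak in the Hr78 window, rank 366, lay between genes, 6701 bp downstream of the start of Neu2. The peak of knrl, a paralogue of kni, ranked 312 with counterparts at 431, 263 and 273, in the gene's own intron 16651 bp from its start, and its region held CCAATTGG at 2 places and CCAATAAG at 1. kni itself, in the same family branch, had no region above rank 2437 in any list.

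For the remaining 5 genes the pooled ranks lay between 417 and 704. That of Hr3 (ROR class, 451) and those of Hr4 (453 and 456) were intronic and more than 5 kb from their own starts, with Hr3 counterparts ranked 1098, 411 and 317. That of Eip75B (E75, 549) lay 54 bp downstream of the internal start of Eip75B-RC, with counterparts ranked 305, 1170 and 18348. The peaks counted for Hr83 (417) and Eip78C (704) lay nearest to the starts of other genes, 479 bp downstream of that of Pak and 324 bp upstream of that of AcCoAS. The Hr83 peak held CCAATTGG once, the Eip75B and Eip78C peaks GAGAGAG once each, and the peaks of Hr3, Hr4 and the weaker one of Hr78 none of the 5 motifs. Of the 21 nuclear receptor genes together, 10 had a thresholded peak within 10 kb, against 17.5% of all protein-coding genes. A thresholded summit within 1000 bp of a start of their own was found for 4, svp, Hr39, Hr78 and Eip75B, against 4.38%. A region among the top 1000 of every replicate was found for 5 of the 11 other genes and for 7 of the 21, against 13.4%. Nothing is read from these counts either. The 11 other genes had a median best pooled rank of 549, compared with 2729 over all genes with a region. Their median length was 13325 bp, against 2166 bp for all protein-coding genes.

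**Figure D4:**
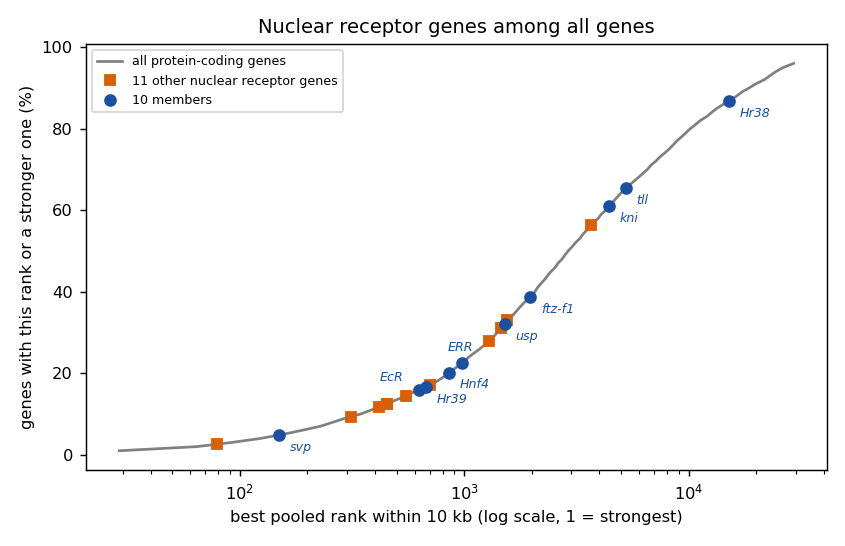
Share of all 13945 protein-coding genes with a given best pooled rank or a stronger one within 10 kb (grey curve) against that rank (log scale), with the 10 members (circles, named) and the 11 other nuclear receptor genes (squares). The members ran from svp, whose rank 4.93% of genes reached or passed, to Hr38 at 86.8%. All but kni, tll and Hr38 lay at 38.7% or less.

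The 3 peaks elsewhere in the genome whose replicate ranks were most like those of the strongest svp peak were at l(1)G0289, ranked 97, 162 and 140 in replicates 1, 2 and 3, at Lmpt, ranked 96, 194 and 182, and at Tcs5, ranked 122, 280 and 196. Likeness was the sum over the 3 replicates of the absolute difference in log10 rank, 0.221, 0.24 and 0.281, among thresholded peaks within 1000 bp of a protein-coding start.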

How the data were processed

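The authors deposited, per the labels' text lists, 1 list of 30000 regions for each replicate and 1 called on the pooled alignments, each with a control library, as input for a reproducibility analysis, and a thresholded list. The signal value in each deposited list is the authors' own and its scale is not stated. The aligner, caller and threshold were not given in the sources used here, nor was the depth. Lists on dm3 were not used here. Summits were taken from the deposited offsets, which lay within 1 bp of the middle of the region for 29887 of 30000 pooled regions, so a summit distance mostly measures from the region's centre. Coordinates are dm6 and 1-based, placed on the release 6 genome with Ensembl release 115 annotation. All 21 gene symbols were found there. Overlap needed 1 bp. Of overlapping replicate regions, the one with the nearest summit was taken as the counterpart. The members and gene lists were chosen with earlier results of these data known, so no test was run. All members are named. Other genes are named where they start nearest to, or overlap, the summit of a thresholded peak or best region, and a few more (Trs23, CG3942 and Uxs) were named after their values were seen. The labels call the replicates biological without saying if each had its own collection of embryos. The interval counts were tested on simulated data. Python 3.11.15, NumPy 2.4.6, pandas 2.3.3 and matplotlib 3.10.9 were used.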

Additional observations from a re-analysis of the deposited data

How the results depend on the processing

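The count of 3 genes with a thresholded peak, that of 5 peaks and that of 2 genes with a top-1000 region in every replicate did not move with the distance set at gene overlap only, 2, 5 or 20 kb. In the 366 thresholded peaks with the highest signal, 1 gene (svp), 2 peaks and 1 gene with a summit near a start were left. Keeping only peaks overlapped by a top-1000 region of both remaining replicates, which is a stricter filter, gave 1 to 3 genes, 3 to 5 peaks and 1 to 2 genes with a summit near a start. EcR and Hr39 dropped out without replicate 1 and without replicate 2, since both then needed replicate 3. Genes with a top-1000 region in each replicate kept numbered 2 to 3 when a replicate was left out, with EcR added without replicate 3. With the top 500 regions of every replicate 1 gene was left, with the top 2000 there were 3. Within 500 bp of a start 1 gene had a thresholded summit. The best pooled rank of svp stayed at 149 with gene overlap only and with regions whose summits lay within 500 bp reduced to the strongest. Of the 10 genes 1, svp, had the palindrome in a thresholded peak, also within 100 bp of the summit and in the 366 highest peaks. No paired analysis was possible because there is 1 group and no test. Unknown depth limits all ranks in the lower part of the lists.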
